A study of Camelus dromedarius with 4 samples.

Results

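The core circadian clock genes were examined in the supraoptic nucleus of the dromedary camel in winter and in summer. These are the genes for the activators ARNTL (also called BMAL1) and CLOCK, the repressors PER1, PER2, PER3, CRY1 and CRY2, the nuclear receptors NR1D1 and NR1D2, and the output transcription factor DBP. The 10 genes were taken by their symbols. Of these, 9 had a mean in each season among the 16053 gene symbols with such means, and all 9 reached a season mean of 10 normalized counts in at least 1 season, as did 13808 symbols in all. NR1D1 was not analysed here. No gene or protein sequences are printed, because none were used here.

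The supraoptic nucleus is a hypothalamic nucleus whose magnocellular neurones make vasopressin and oxytocin. Total RNA was sequenced from 2 winter samples, from animals slaughtered in January at El Oued, and from 2 summer samples, from animals slaughtered in June at Ouargla, both in Algeria. All were healthy adult male Tergui dromedaries of matched age, with no treatment named, so season cannot be told apart from place and day of slaughter. The study's methods give 2 camels a season for RNA sequencing. The hour of slaughter is not given in the sources used here.

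In mammals the clock is a feedback loop. ARNTL and CLOCK bind DNA as a pair and switch on the PER, CRY, NR1D and DBP genes. PER and CRY proteins then return to the nucleus and repress that pair, while the NR1D receptors repress ARNTL, so that ARNTL mRNA usually peaks when PER and DBP mRNA are low. The loop runs in most tissues. It is set by light through the suprachiasmatic nucleus, which lies near the supraoptic nucleus. The level of most of these mRNAs therefore depends on the time of day at which tissue is taken, which was not measured here.

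For each symbol the deposited table gives the season mean of counts divided by the size factor of each library (normalized counts). Because each mean is a sum of whole reads with a fixed worth in each library, the reads of both libraries could be solved for. The libraries solved in this way do not themselves name the replicate. They are called winter A and winter B (size factors 1.33 and 0.946) and summer A and summer B (0.922 and 0.877), with A the larger factor of its season. PER2, PER3, CRY1 and CRY2 had a single solution in both seasons. ARNTL, CLOCK, PER1 and DBP had a single solution in summer but 2 or 3 in winter, and NR1D2 had several in both, so for these 5 genes the season mean is exact and the values of the libraries are given as alternatives. Reads counted on gene models ranged from 4379162 to 6902037 per library in the deposited count files. Of all alignments tallied there, 72.2% to 79.3% per library were not counted on gene models.

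Some facts of the libraries touch the results below. The libraries of each season stood apart from each other. In winter, 9 immediate early genes had a median log2 ratio of winter A to winter B of 1.51. It was 1.48 for 3 astrocyte markers, 1.91 for 3 magnocellular markers and 0.066 over all symbols solved. Of these magnocellular markers, POU3F2 was level (0.0033). The other lists stood less far apart, from -0.34 for 4 suprachiasmatic markers to 0.81 for 3 regulators of clock proteins. The median was 0.20 for 3 microglial and 0.19 for 4 endothelial markers. Summer B and summer A were unlike: 230 of 11701 symbols whose summer mean reached 10 had 0 reads in summer A, against 2 in summer B. Neurone markers stood higher in the winter mean for 6 of 7 genes (median log2 ratio 0.76, summed winter and summer means 12477 and 10658), and none was at 0. Over all 13808 symbols, 6378 stood higher in the winter mean. In bulk tissue, fewer cells of a type and less RNA per cell cannot be told apart. Of the magnocellular markers, the table lists a putative vasopressin gene with means of 2560 in winter and 11822 in summer, and oxytocin (OXT) with means of 621 and 592. Both are uncertain, since these genes are near-identical over part of their length in mammals.

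By season means, DBP, PER2 and PER1 stood higher in winter, and the activators ARNTL and CLOCK stood higher in summer together with PER3 and NR1D2. CRY1 and CRY2 were nearly level. The largest season difference among the clock genes was that of DBP, 1.76-fold, followed by PER2, 1.52-fold. None of the 9 genes passed an adjusted p of 0.05 or the 2-fold rule given below, and the differences of the 4 genes with a single solution lay within the spread between libraries. Therefore no rise or fall of a clock gene is called here.

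The activators were both lower in winter by their means. ARNTL, the partner that is itself rhythmic in most tissues, had winter and summer means of 186 and 236 normalized counts, a log2 ratio of winter to summer of -0.34. Its summer reads were single-valued, at 221 normalized reads in summer A and 251 in summer B. Its winter mean resolved either to 191 and 182 in winter A and winter B, or to 51.3 and 322. With the first pair winter A and winter B were each lower than either summer library, and with the second the seasons overlapped. The difference did not pass with either, at unadjusted p = 0.314 and 0.627 in edgeR's quasi-likelihood test. With the second pair and winter B left out, which leaves 1 winter library, the fitted log2 difference of ARNTL was -2.20.

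CLOCK, the DNA-binding partner of ARNTL, had means of 327 in winter and 418 in summer (log2 ratio -0.36). The summer libraries were close, with 437 normalized reads in summer A and 399 in summer B. Its winter mean resolved to 230 and 423 in winter A and winter B, to 370 and 283, or to 509 and 144. The second of these put winter wholly below summer, and with the others the seasons overlapped. The p-values from edgeR's quasi-likelihood test ran from 0.343 to 0.557 over these solutions. ARNTL and CLOCK thus stood 1.27-fold and 1.28-fold lower in the winter mean, and 23.1% and 22.1% of all 13808 symbols had a lower log2 ratio.

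The period genes did not share a direction. PER1, the period gene that also responds directly to light and to glucocorticoids in other tissues, had means of 439 in winter and 327 in summer (log2 ratio 0.43). Its summer values were 275 normalized reads in summer A and 378 in summer B. Its winter mean resolved to 399 and 479 in winter A and winter B, to 539 and 339, or to 678 and 200. The first of these placed winter wholly above summer, the others did not, and the p-values from edgeR's quasi-likelihood test ran from 0.280 to 0.473.

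PER2, a core repressor of the loop, had 133 normalized reads in winter A, 105 in winter B, 49.9 in summer A and 106 in summer B. Only summer A was low, and summer B lay above winter B, so the seasons overlapped. The fitted log2 difference, winter minus summer, was 0.61 with a 95% interval of -0.39 to 1.62 (edgeR's quasi-likelihood test, unadjusted p = 0.196). The season difference of PER2 therefore rested on summer A: without that library its log2 ratio was 0.16, and without summer B it was 1.25.

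PER3, the period gene that the loop can do without in mice, had 38.5 normalized reads in winter A, 38.1 in winter B, 18.4 in summer A and 79.8 in summer B. The winter libraries were level and lay between those of summer. Its fitted log2 difference was -0.35 (-1.92 to 1.22, unadjusted p = 0.617 in edgeR's quasi-likelihood test). It was -1.06 without summer A and 1.05 without summer B, so the direction of PER3 was set by which summer library was used.

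The cryptochrome genes, whose proteins carry out repression of the activator pair, had nearly equal season means. CRY1 had 64.9 normalized reads in winter A, 49.7 in winter B, 30.4 in summer A and 92.3 in summer B. As for PER3, both winter values lay between the summer values. The fitted log2 difference was -0.084 (-1.38 to 1.21, unadjusted p = 0.884 in edgeR's quasi-likelihood test), and its sign turned (0.053) when libraries were scaled to the total of the solved reads.

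CRY2 had 103.4 normalized reads in winter A, 103.6 in winter B, 139 in summer A and 80.9 in summer B. Here summer A was the high library, the opposite of CRY1. The fitted log2 difference of CRY2 was -0.088 (-0.97 to 0.79, unadjusted p = 0.822 in edgeR's quasi-likelihood test), an interval that still allows a change of more than 1.5-fold either way. The log2 ratio of CRY1 to CRY2 differed by -0.012 between the season means, yet it was -2.19 in summer A and 0.19 in summer B.

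NR1D2 (REV-ERB beta), which represses ARNTL, had means of 534 in winter and 629 in summer, a log2 ratio of -0.24. Its winter mean had 3 solutions and its summer mean 2. The winter solutions gave 529 and 538 normalized reads in winter A and winter B, 669 and 399, or 808 and 259. In summer, one solution gave 151 and 1108 normalized reads in summer A and summer B, and the other 708 and 551. Over the 6 combinations the p-values ran from 0.561 to 0.803 in edgeR's quasi-likelihood test, and 1 combination placed summer wholly above winter. With the first summer solution and summer B left out, which leaves 1 summer library, the fitted log2 difference of NR1D2 was 1.82 to 1.83. That is the opposite direction to its season means.

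DBP, a PAR bZIP transcription factor switched on directly by ARNTL and CLOCK and often among the mRNAs with the widest daily swing, had means of 137 in winter and 78.0 in summer. Its log2 ratio of 0.82 lay at the 95th percentile of all symbols, which was 0.81. The summer libraries were level, at 71.6 normalized reads in summer A and 84.3 in summer B. The winter mean resolved to 149 and 126 in winter A and winter B, or to 9.06 and 265. With the first pair winter A and winter B were each higher than either summer library and the fitted log2 difference was 0.82 (0.031 to 1.61, unadjusted p = 0.0435 in edgeR's quasi-likelihood test), which was under 2-fold. With the second pair the unadjusted p = 0.486 in the same edgeR test. The second pair also made the direction of DBP depend on the winter library: the fitted log2 difference was 1.77 without winter A and -3.09 without winter B.

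**Figure D1:**
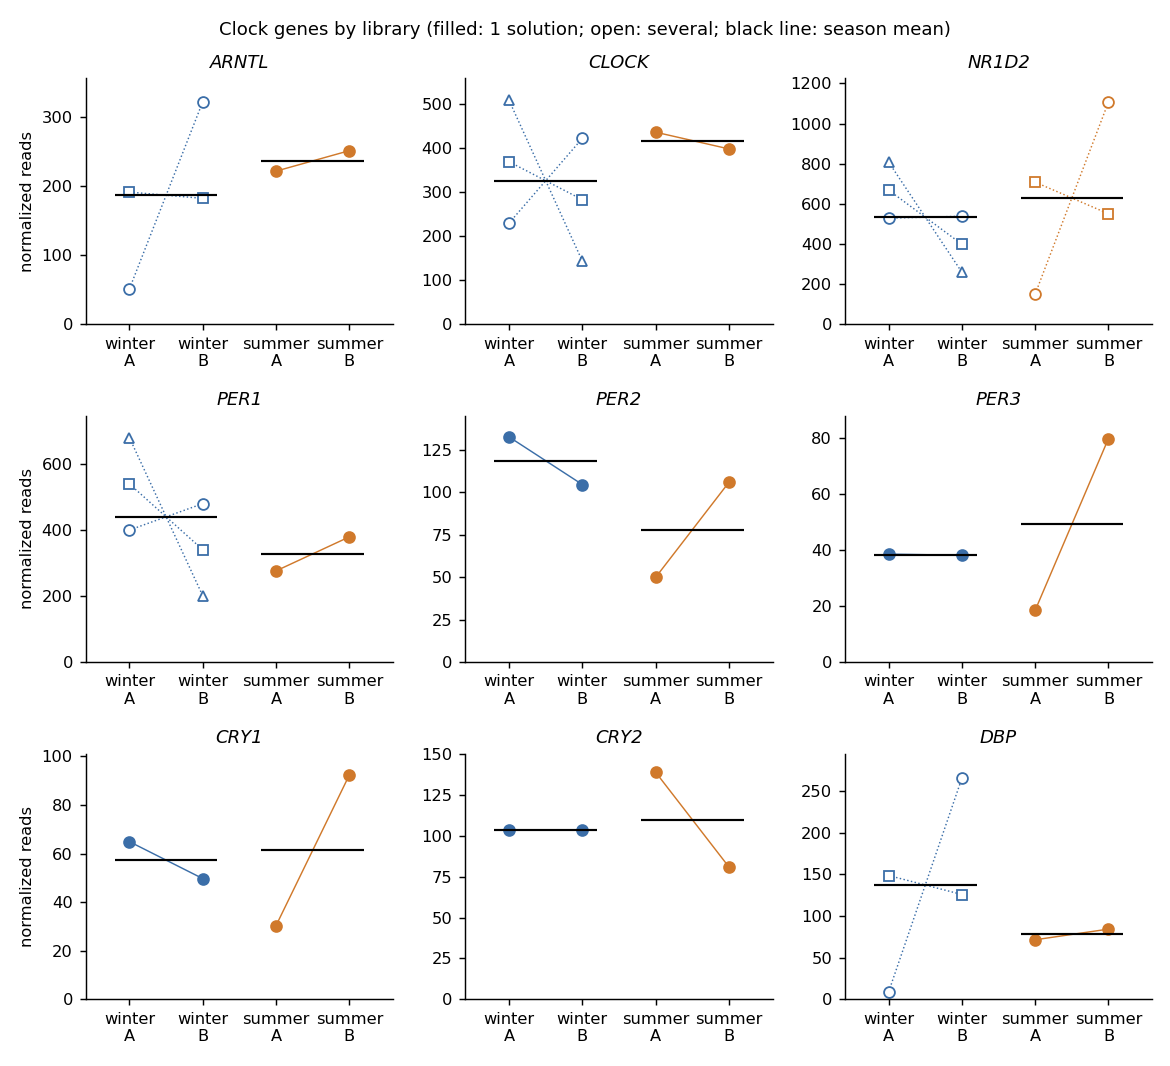
Normalized reads of the 9 clock genes in winter A, winter B, summer A and summer B, each panel on its own linear axis from 0. Filled points joined by solid lines are single solutions, open points joined by dotted lines are the alternative solutions of 1 mean, and black lines are season means; the winter points of PER3 (38.5 and 38.1) lie between its summer points (18.4 and 79.8).

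The clock genes lay on both sides of the middle of the whole table. PER3, CLOCK and ARNTL had a higher log2 ratio than 21.9% to 23.1% of all symbols, PER1 than 83.8% and PER2 than 90.5%. The median log2 ratio was -0.098 over the 9 genes and -0.036 over all 13808 symbols. By season means, 3 clock genes were higher in winter and 6 lower, and 6378 of all 13808 symbols were higher in winter. DBP and PER2 were more than 1.5-fold higher in winter, 2 of 9 genes, where 10.1% of all symbols were. No clock gene was more than 1.5-fold higher in summer, where 12.2% of all symbols were.

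**Figure D2:**
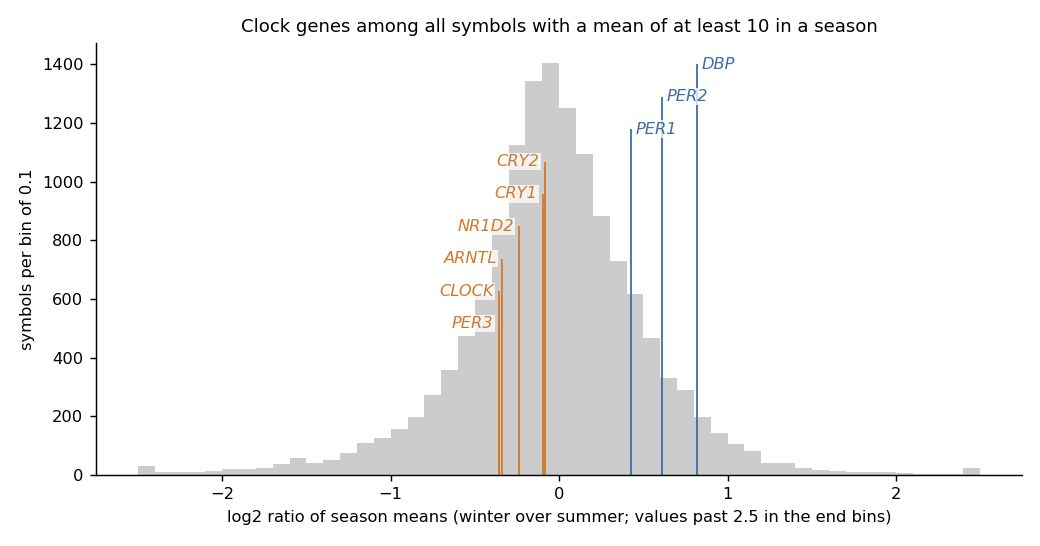
Histogram of the log2 ratio of winter to summer season means over 13808 symbols (grey, symbols per bin of 0.1), with lines at the clock genes; line heights only separate the names. DBP (0.82), PER2 (0.61) and PER1 (0.43) lie to the right of 0, and PER3, CLOCK, ARNTL, NR1D2, CRY1 and CRY2 lie between -0.36 and -0.09.

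In edgeR's quasi-likelihood test, fitted over the 7633 symbols with a single solution and adjusted by the Benjamini-Hochberg method, 0.0% of symbols (0) passed an adjusted p of 0.05. At an unadjusted p under 0.05 there were 152, while edgeR's exact test and DESeq2 each called 1 symbol after adjustment and limma-voom 0. The clock genes, including each solution of the 5 genes with several, had adjusted p-values from 0.981 to 0.989. The study's thresholds, unadjusted p under 0.05 together with a difference above 2-fold, are called the 2-fold rule here. By this rule, 1.68% of symbols were called and 0 of 9 clock genes in any solution. The study applied its thresholds to a pairwise exact test over its own set of genes, so its calls are not directly comparable.

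The libraries of the seasons did not overlap for 30.5% of the 7633 symbols. Of the 4 clock genes with a single solution, 0 were separated in this way, though with TMM factors, or with scaling to the total of the solved reads, 1 was. Each of the other 5 genes was separated in at least 1 of its solutions, and none in every solution. With 2 libraries against 2, an exact two-sided permutation test cannot give a p below 0.333, so none is printed for single genes.

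PER2, PER3, CRY1 and CRY2, and by a narrow margin PER1, differed more between the summer libraries than between the season means, whereas ARNTL, CLOCK and DBP differed less. Of the 8 with a single summer solution, 3 were more than 2-fold apart between the summer libraries, and 23.3% of the 11701 symbols solved in summer were. PER3 was 4.33-fold higher in summer B, CRY1 3.04-fold and PER2 2.13-fold. Most symbols past 2-fold had this direction: 18.3% of the 11701 were higher in summer B and 5% in summer A. CRY2 was 1.72-fold higher in summer A. ARNTL, CLOCK, PER1 and DBP differed by at most 1.37-fold between these libraries. Among symbols of like summer mean, 11.0% lay farther apart than PER3, 12.3% farther than CRY1 and 18.1% farther than PER2.

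In winter the 4 genes with single solutions were closer together. PER3 and CRY2 were within 1.01-fold between winter A and winter B, PER2 was 1.27-fold higher in winter A and CRY1 1.31-fold. Across all symbols solved in winter, 14.7% were more than 2-fold apart.

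Markers of cell types also differed between the summer libraries, in both directions. The 4 neurone markers with a single summer solution of 7 in the table summed to 241 normalized reads in summer A and 628 in summer B. The 5 astrocyte markers of 8 summed to 264 and 735. Median log2 ratios of summer B to summer A were 1.34 for these neurone markers, 1.25 for these astrocyte markers and 0.07 over all symbols. Markers of other cells were lower in summer B by their sums. In summer A and summer B, 3 microglial markers summed to 281 and 184 normalized reads. The sums were 576 and 415 for 2 oligodendrocyte markers, and 1270 and 1002 for 7 endothelial markers. Singly these markers were mixed: TMEM119 (log2 ratio of summer B to summer A 0.13), CLDN5 (0.54) and CDH5 (0.66) were higher in summer B, and the rest lower. PER2, PER3 and CRY1 were higher in the same library as the neurone and astrocyte markers. CRY2 was lower there, as were the sums, though not every marker, of the other cells. The part of cell composition in the values of PER2, PER3, CRY1 and CRY2 was not tested.

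**Figure D3:**
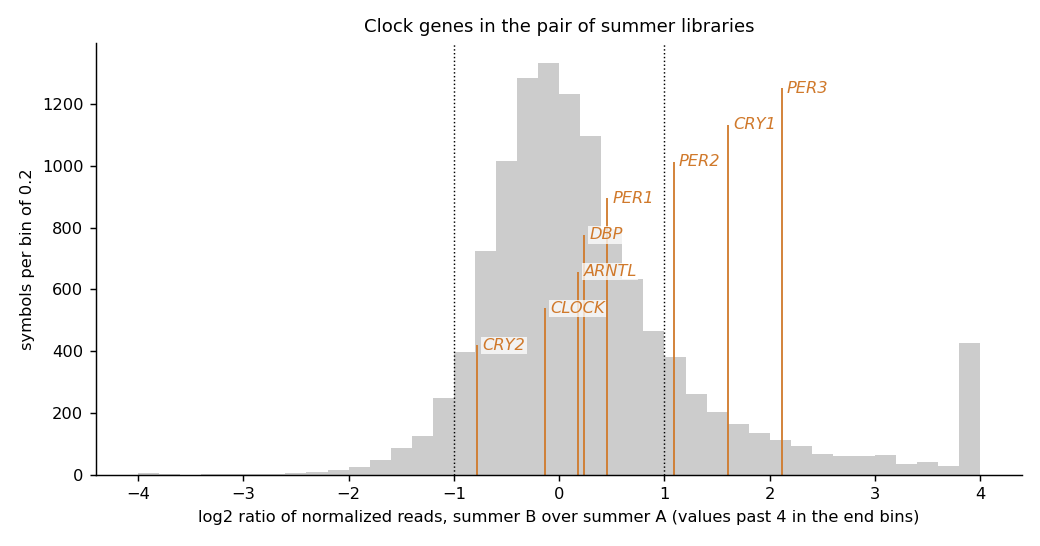
Histogram of the log2 ratio of normalized reads in summer B to summer A over 11701 symbols (grey, symbols per bin of 0.2), with lines at the 8 clock genes that had a single summer solution; line heights only separate the names and dotted lines mark 2-fold. PER2 (1.09), CRY1 (1.60) and PER3 (2.11) lie beyond 2-fold, and CRY2 (-0.78) lies on the other side of 0.

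A ratio between clock genes within 1 library does not depend on the scaling between libraries, but a ratio of season means does where the libraries differ. The ratio itself depends on transcript length, so only its change between seasons is read. The summed means of PER1, PER2, PER3, NR1D2 and DBP over those of the activators (ARNTL and CLOCK) gave a log2 ratio of 1.30 in winter and 0.83 in summer, a difference of 0.48, and of 0.45 with CRY1 and CRY2 added to the former. With any 1 of these genes left out, the difference lay between 0.34 (without PER1) and 0.81 (without NR1D2). Within summer, the same ratio without NR1D2 was -0.66 in summer A and -0.0025 in summer B, beside 0.52 in winter and -0.30 in summer by the means.

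The ratio of DBP to ARNTL was steadier between the summer libraries, with log2 values of -1.63 in summer A and -1.57 in summer B. By season means it was -0.44 in winter and -1.60 in summer, a difference of 1.16. Of the 4 combinations of winter solutions, 2 placed winter wholly above summer, 0 placed it wholly below, and in the others the seasons overlapped. The combinations are alternatives and not replicates, so such counts are no measure of strength. No share over other pairs of symbols was computed, and the seasons did not overlap for 30.5% of single symbols. For DBP over CLOCK, 3 of 6 combinations placed winter above, for PER1 over CLOCK 5 of 9, and for PER1 over ARNTL 2 of 6. For PER2 over ARNTL 1 of 2 did so, and for PER2 over CLOCK 1 of 3. DBP, PER1 and PER2 were the clock genes higher in the winter mean, and ARNTL and CLOCK were lower in it. Winter above summer was therefore largely set by the choice of pairs. PER3 and NR1D2 over the activators were not counted in this way. The ratios share genes with each other and are given as descriptions, with no test.

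Among 3171 symbols with a single solution and means of at least 50 in both seasons, the genes with a pattern most like that of PER2 over the 4 libraries were ZNF384, EMC4, GP1BA, NECAB2 and RFX1. Their centred log2 values differed from those of PER2 by a root mean square of 0.062 to 0.11. In each of them summer A was the lowest library, as in PER2, which follows from their choice by likeness to it. CRY1 ranked 297 by this measure (0.35) and CRY2 ranked 2429 (0.76). DBP and PER1 could not serve as the reference because their winter values had several solutions.

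Other genes of the clock pathway were described by their season means, beside a median log2 ratio of -0.036 over all symbols. Of the further genes of the activator arm, 4 of 5 were in the table, with a median of 0.067. Only 3 of these had a single solution and entered the fit, and 0 of the 3 were called by the 2-fold rule. RORA, which activates ARNTL and so opposes the NR1D receptors, had 126 and 147 normalized reads in winter A and winter B and 113 and 91.2 in summer A and summer B (log2 ratio of means 0.42). RORB had 100.4 and 91.0 in winter and 104.1 and 178 in summer (log2 ratio of means -0.56). Neither passed, at unadjusted p = 0.249 and 0.182 in edgeR's quasi-likelihood test.

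Of 8 further clock-controlled transcription factors, 6 reached a mean of 10, with a median log2 ratio of -0.11. TEF and HLF, the PAR bZIP relatives of DBP, did not move alike in the means, with log2 ratios of 0.46 for TEF and -0.042 for HLF. TEF had 139 and 106 normalized reads in winter A and winter B against 90.0 and 87.8 in summer A and summer B, so its seasons did not overlap, but it did not pass (unadjusted p = 0.212 in edgeR's quasi-likelihood test). KLF10 had the largest ratio in this list, -0.92, with 67.2 and 27.4 normalized reads in the summer libraries. BHLHE41 (DEC2), a repressor that competes with the activators for their DNA element, had a log2 ratio of 0.47.

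Of 15 kinases, ubiquitin ligases and other regulators of clock proteins, all reached a mean of 10, with a median log2 ratio of -0.043. Only 3 entered the fit, and 0 of these were called by the 2-fold rule. CSNK1D, the kinase that marks PER proteins for decay, had means of 223 in winter and 143 in summer (log2 ratio 0.64). TIMELESS had means of 16.0 and 30.2 (log2 ratio -0.92, unadjusted p = 0.233 in edgeR's quasi-likelihood test).

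Of 12 chromatin partners of the clock, 10 reached a mean of 10, and 8 of these stood higher in winter (median log2 ratio 0.32). Over all 13808 symbols, 6378 did. Only EP300 and EZH2 entered the fit, and 0 of the 2 were called by the 2-fold rule. EP300, a coactivator of ARNTL and CLOCK, had 112 and 141 normalized reads in winter A and winter B and 64.0 and 74.1 in summer A and summer B. The seasons of EP300 did not overlap, at a log2 ratio of 0.87 and unadjusted p = 0.0389 (adjusted p = 0.982) in edgeR's quasi-likelihood test. EZH2 had a log2 ratio of 0.55 (unadjusted p = 0.186 in the same edgeR test).

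The clock can also be reset by steroids and by neuronal activity. Of 9 glucocorticoid response genes with a mean of 10 or more, PER1 and ERRFI1 were the 2 that stood higher in winter, and the median log2 ratio was -0.47. FKBP5, a feedback regulator of the glucocorticoid receptor, had means of 139 in winter and 264 in summer (log2 ratio -0.93), and ERRFI1 had a ratio of 0.91. PER1 (0.43) thus stood apart from FKBP5, TSC22D3 (-0.67) and SGK1 (-0.52) in direction, and none of these 4 had a single solution.

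Of 11 immediate early genes with a mean of 10 or more, 10 entered the fit and 1 was called by the 2-fold rule, and the median log2 ratio was -0.14. EGR1, a transcription factor induced by activity, had 64.1 and 28.6 normalized reads in winter A and winter B and 18.4 and 11.4 in summer A and summer B (log2 ratio of means 1.64, unadjusted p = 0.0425 and adjusted p = 0.982 in edgeR's quasi-likelihood test). NR4A1 had 18.1 and 6.35 in winter and 7.59 and 62.7 in summer, so summer B was its only high library behind a log2 ratio of means of -1.52. The median log2 ratio of summer B to summer A in this list was 1.13 over 9 genes, the same direction as PER2, PER3 and CRY1, beside the ratio of winter A to winter B of 1.51 in this list.

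The markers of the neighbouring suprachiasmatic nucleus were read for a possible share of that tissue. Of 12 markers, 9 were in the table, 5 reached a mean of 10, and the neuropeptide gene GRP was listed at 1.13 in winter and 0 in summer. LHX1, a transcription factor of suprachiasmatic neurones, was called by the 2-fold rule but on few reads. It had 16 and 8 in winter A and winter B against 1 and 1 in summer A and summer B. LHX1 entered the fit through its winter mean alone (10.3, against 1.11 in summer), so the filter itself favoured this direction. The ratio of its summed reads, scaled by size factors, was 9.51 with an exact 95% interval of 2.36 to 83.0, which covers counting error only (unadjusted p = 0.0219 and adjusted p = 0.982 in edgeR's quasi-likelihood test). NMS and SYT10, also suprachiasmatic genes, had the other direction in the means, with log2 ratios of -0.63 and -0.69. For SYT10 only summer B was high, at 87.8 normalized reads against 22.8 in summer A, 27.2 in winter A and 41.2 in winter B. NMUR2 (log2 ratio 0.50) and ZFHX3 (0.38) had the direction of LHX1. The summed means of the 5 markers were 568 in winter and 476 in summer, most of which was ZFHX3 (467 and 360). Without ZFHX3 the other 4 summed to 101 and 117, so the direction turned. By library these 4 summed to 88.3 and 113 in winter A and winter B and to 77.0 and 156 in summer A and summer B. The seasons therefore overlapped, and only summer B was above both winter libraries. The part of that nucleus in the values of the clock genes was not tested.

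**Figure D4:**
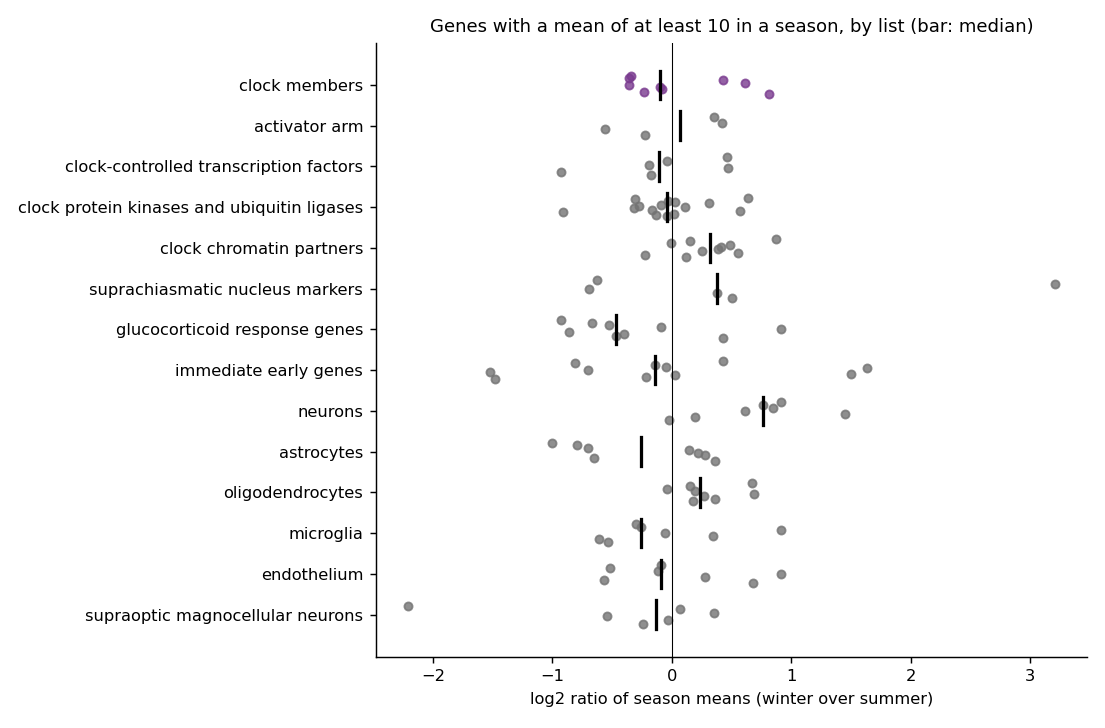
Log2 ratio of winter to summer season means (x axis) for each gene whose mean reached 10 in either season, by gene list (rows); points are genes and black bars are list medians. The clock genes (top row, median -0.098) spread from -0.36 to 0.82, and the farthest points are LHX1 (3.21) on the right and the putative vasopressin gene (-2.21) on the left.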

How the data were processed

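Per the study's methods, total RNA depleted of ribosomal RNA was made into stranded libraries. The authors aligned reads with TopHat to their own dromedary assembly and counted them with HTSeq (strand setting and versions are not given in the sources used here). The deposited count files hold raw read counts per gene model. Their identifiers are not paired with gene names, so they gave the depth alone. In the deposited table the authors gave a signal per gene symbol and season, averaged after each library's counts were scaled by its DESeq size factor. Its other columns, the authors' edgeR fold changes and p-values, were not used.

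Each mean (6 significant digits) was solved for the whole reads of the 2 libraries. Among low means 100% were whole in both seasons, against 0.227% (winter) and 0.375% (summer) of shifted values. Single solutions in both seasons were found for 9874 symbols. Such symbols have low to moderate means. In winter, a set of reads in winter A is worth nearly the same as another set in winter B, which gives several solutions at higher means. The 4 rows whose symbol was repeated were left out.

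The 7633 symbols with 1 solution whose mean reached 10 in winter or summer entered edgeR (version 4.0.16, R version 4.3.3; glmQLFit with legacy set to FALSE, glmQLFTest, offsets from the solved size factors), adjusted by the Benjamini-Hochberg method. The common biological coefficient of variation was 0.46. Members with several solutions were added to this table with each solution in turn, 16 combinations in all. The thresholds of the 2-fold rule were those of the study: unadjusted p under 0.05 and more than 2-fold. The study's own test was a pairwise exact test. Alternatives were limma-voom (limma 3.58.1), DESeq2 1.42.0, edgeR's exact test, other scalings, filters and fold limits, and each library left out. The last of these over every solution, a 1.5-fold limit between the summer libraries, and the sum with CRY1 and CRY2 were added after the data were seen. The ratios between single clock genes were not planned.

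All clock genes are named. Of each other list, the text names the genes past the 2-fold rule and the 2 with the largest log2 ratio of means in either direction. Some further genes (TEF, HLF, TSC22D3, SGK1, NMS, NMUR2, ZFHX3, GRP, TMEM119 and CLDN5) were chosen after their values were seen. The clock genes and the lists were chosen with earlier results of these data known. Scripts were tested on simulated data.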

Additional observations from a re-analysis of the deposited data

How the results depend on the processing

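With 2 libraries a season, and several solutions for 5 clock genes, only wide differences could have been shown. No paired analysis was possible, because the animals of each season were slaughtered at different dates and places and none was sampled in both. Counts over all symbols moved most: an adjusted p of 0.05 was passed by 1 symbol with edgeR's exact test and 1 with DESeq2, and by 0 to 233 with a library left out (233 without summer A, 224 without summer B). The 2-fold rule called 60 symbols with DESeq2, 83 with limma-voom, 79 with a mean of at least 10 in both seasons, 66 at 3-fold, and 35 to 1160 with a library left out (35 without winter A, 51 without winter B, 1101 without summer A, 1160 without summer B), against 128. A lone library was then assumed to vary like the other season. Of the 4 clock genes with a single solution, 0 to 1 passed that rule: PER3 without summer A and PER2 without summer B. Of the others, DBP passed in 1 of its solutions without winter A, ARNTL and DBP without winter B, and NR1D2 without summer B. At 2-fold, season means were apart for 1002 of 13808 symbols and 0 clock genes. Libraries of the seasons were separated for 1 clock gene with a single solution under TMM factors and under the total of the solved reads. The fitted log2 difference of PER3 turned to 0.0097 in limma-voom and that of CRY1 to 0.14, and CRY1 turned to 0.053 when scaled to the total of the solved reads. With a library left out, fitted values ranged from 0.17 to 1.25 for PER2, -1.06 to 1.05 for PER3, -0.68 to 0.92 for CRY1 and -0.42 to 0.35 for CRY2. Ratios of means, over every solution, ranged from 0.16 to 1.25 for PER2, -1.06 to 1.05 for PER3, -0.69 to 0.92 for CRY1, -0.42 to 0.36 for CRY2, -2.20 to 0.45 for ARNTL, -1.54 to 0.29 for CLOCK, -0.71 to 1.05 for PER1, -1.28 to 1.82 for NR1D2 and -3.11 to 1.77 for DBP. The causes were not tested.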

Other observations

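Markers of other cells beside the clock genes did not share a direction in the season means. Over all 13808 symbols, 6378 stood higher in winter. Of 8 oligodendrocyte markers, 7 stood higher in winter (median log2 ratio 0.23), with MAG, a myelin glycoprotein, at 0.69 and MBP, a myelin protein, at 0.67. Of 7 microglial markers, 2 stood higher in winter (median -0.26). CSF1R, the growth factor receptor of microglia, had a ratio of 0.92 (unadjusted p = 0.0787 in edgeR's quasi-likelihood test) and C1QB, a complement gene, one of -0.61. Of 7 endothelial markers, 3 stood higher in winter (median -0.093), with CDH5 at 0.91 and TIE1 at 0.68. Of 8 astrocyte markers, 4 stood higher in winter (median -0.26), with GFAP at -0.80 and AQP4 at -1.01. AQP4 rested on few reads, 9 and 3 in winter A and winter B and 9 and 9 in summer A and summer B. It entered the fit through its summer mean alone, so the filter itself favoured this direction (unadjusted p = 0.347 in edgeR's quasi-likelihood test). NEFM, a neurofilament gene, had the largest ratio of the neurone markers at 1.45, and RBFOX3 had 0.91. Among magnocellular markers SIM1 had -0.55. Of these markers 1 for neurones, 4 for astrocytes, 3 for microglia, 4 for endothelium, 3 for magnocellular neurones and 0 for oligodendrocytes entered the fit, and 0 of those were called by the 2-fold rule.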
